A study of Mus musculus with 6 samples.

Results

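Bfar, Bbc3, Casp2 and Map3k20, 4 genes of programmed cell death and stress signalling, were followed at the level of single transcript isoforms in mouse duodenal crypt organoids given BMP2. The members were chosen by gene name from the authors' deposited table of isoforms whose usage differed between BMP2 and vehicle. They make up 9 of the 302 isoforms and 4 of the 202 genes in it. The organoids were of C57BL/6 wild-type genotype in both conditions. One group of 3 libraries received vehicle and the other group of 3 received BMP2 at 100 ng/ml on day 6 for 24 h, and no other allele or agent is named for either. The labels do not say whether libraries came from separate animals or cultures, nor from how many animals the organoids were grown. A q-value can therefore judge a difference only against the spread between these libraries, which may be technical.

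Usage is the percent of a gene's transcripts that 1 isoform makes up. Abundance is given in TPM, a unit that counts transcripts and is already scaled by their length. The authors' table holds means per condition, so no value below has a replicate error and values per library were not analysed here. The depth of the libraries is unknown. An isoform is in the table because it passed: all 302 isoforms, or 100.0%, have a q under 0.05 and an absolute difference in usage fraction of at least 0.1. The q-values of the members are therefore given as a description and support nothing beyond their presence in the table. The lowest mean TPM over both conditions in the table was 1.005, and whether the authors set a minimum is not known. With a minimum of 1 TPM, an isoform under 1 TPM with vehicle could be listed only if it was higher in BMP2. None of 31 markers of intestinal, fibroblast, immune and endothelial cells was in the table, so the labelled cell type could not be checked with it.

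Apoptosis is started inside the cell by BH3-only proteins, which act on the BCL2 family at the mitochondrion, and is carried out by caspases. Bbc3 encodes PUMA, a BH3-only protein and p53 target known for driving crypt cell death after DNA damage in the small intestine. Bfar encodes a membrane protein of the endoplasmic reticulum with a RING domain that was described as an apoptosis regulator binding BCL2 and caspase-8. Casp2 encodes an initiator caspase that is activated on the PIDDosome. Map3k20 encodes the kinase ZAK, which senses stalled and collided ribosomes and passes the signal to the p38 and JNK kinases. One gene can yield isoforms that encode different proteins or none. A transcript annotated as retaining an intron keeps sequence that is spliced out of the messenger RNA and has no annotated coding sequence.

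In Bfar, Bbc3 and Casp2 a protein-coding isoform lost usage with BMP2 while an isoform annotated as retaining an intron gained it. In Map3k20 usage moved between protein-coding isoforms with different last exons. All 9 isoforms matched GENCODE M21 by stable identifier, and every coordinate below is on GRCm38. Bases at splice sites where the isoforms of a gene part are shown first, as part of the sequence that tells gained from lost isoforms. Other stretches that differ are described with each gene. In each line 60 bases are given 5′ to 3′ on the plus strand, 30 on either side of the boundary of an exon.

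At the start of the fifth exon of Bfar-201, the protein-coding isoforms and the retained intron isoform reach the same exon from 3 different sequences. Capitals mark the bases before that exon.
Bfar-201, chr16:13688896-13688925 joined to chr16:13692433-13692462: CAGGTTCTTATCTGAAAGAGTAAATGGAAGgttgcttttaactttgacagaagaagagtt
Bfar-202, chr16:13685369-13685398 joined to chr16:13692433-13692462: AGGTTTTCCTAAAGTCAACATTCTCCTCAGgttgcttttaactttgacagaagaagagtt
Bfar-207, unspliced, chr16:13692403-13692462: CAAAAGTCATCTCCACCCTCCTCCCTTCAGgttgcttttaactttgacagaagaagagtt

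At the start of the third exon of Bbc3-201, Bbc3-203 runs in from the intron. Capitals again mark the bases before the exon.
Bbc3-201, chr7:16312385-16312414 joined to chr7:16313627-16313656: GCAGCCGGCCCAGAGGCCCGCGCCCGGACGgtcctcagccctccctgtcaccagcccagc
Bbc3-203, unspliced, chr7:16313597-16313656: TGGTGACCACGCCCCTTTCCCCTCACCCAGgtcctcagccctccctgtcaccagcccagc

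At the end of the first exon of Casp2-201, Casp2-204 reads on into the intron, and it does so again at the end of the second exon. Capitals mark the bases after the exon.
Casp2-201, exon 1, chr6:42265168-42265197 joined to chr6:42267499-42267528: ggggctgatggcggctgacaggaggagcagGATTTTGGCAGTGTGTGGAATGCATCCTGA
Casp2-204, unspliced, chr6:42265168-42265227: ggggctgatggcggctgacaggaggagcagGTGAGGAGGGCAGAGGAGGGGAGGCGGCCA
Casp2-201, exon 2, chr6:42267620-42267649 joined to chr6:42267894-42267923: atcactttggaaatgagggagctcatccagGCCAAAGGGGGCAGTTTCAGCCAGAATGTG
Casp2-204, unspliced, chr6:42267620-42267679: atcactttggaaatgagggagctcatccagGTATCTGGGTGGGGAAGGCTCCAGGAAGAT

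After the eleventh exon of Map3k20 the isoforms join to different exons, each of which goes on coding. Capitals mark the bases after the eleventh exon.
Map3k20-201, chr2:72398396-72398425 joined to chr2:72410149-72410178: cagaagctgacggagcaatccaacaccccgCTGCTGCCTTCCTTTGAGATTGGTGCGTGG
Map3k20-204, chr2:72398396-72398425 joined to chr2:72401989-72402018: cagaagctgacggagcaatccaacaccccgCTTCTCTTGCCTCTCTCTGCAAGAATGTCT

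**Figure D1:**
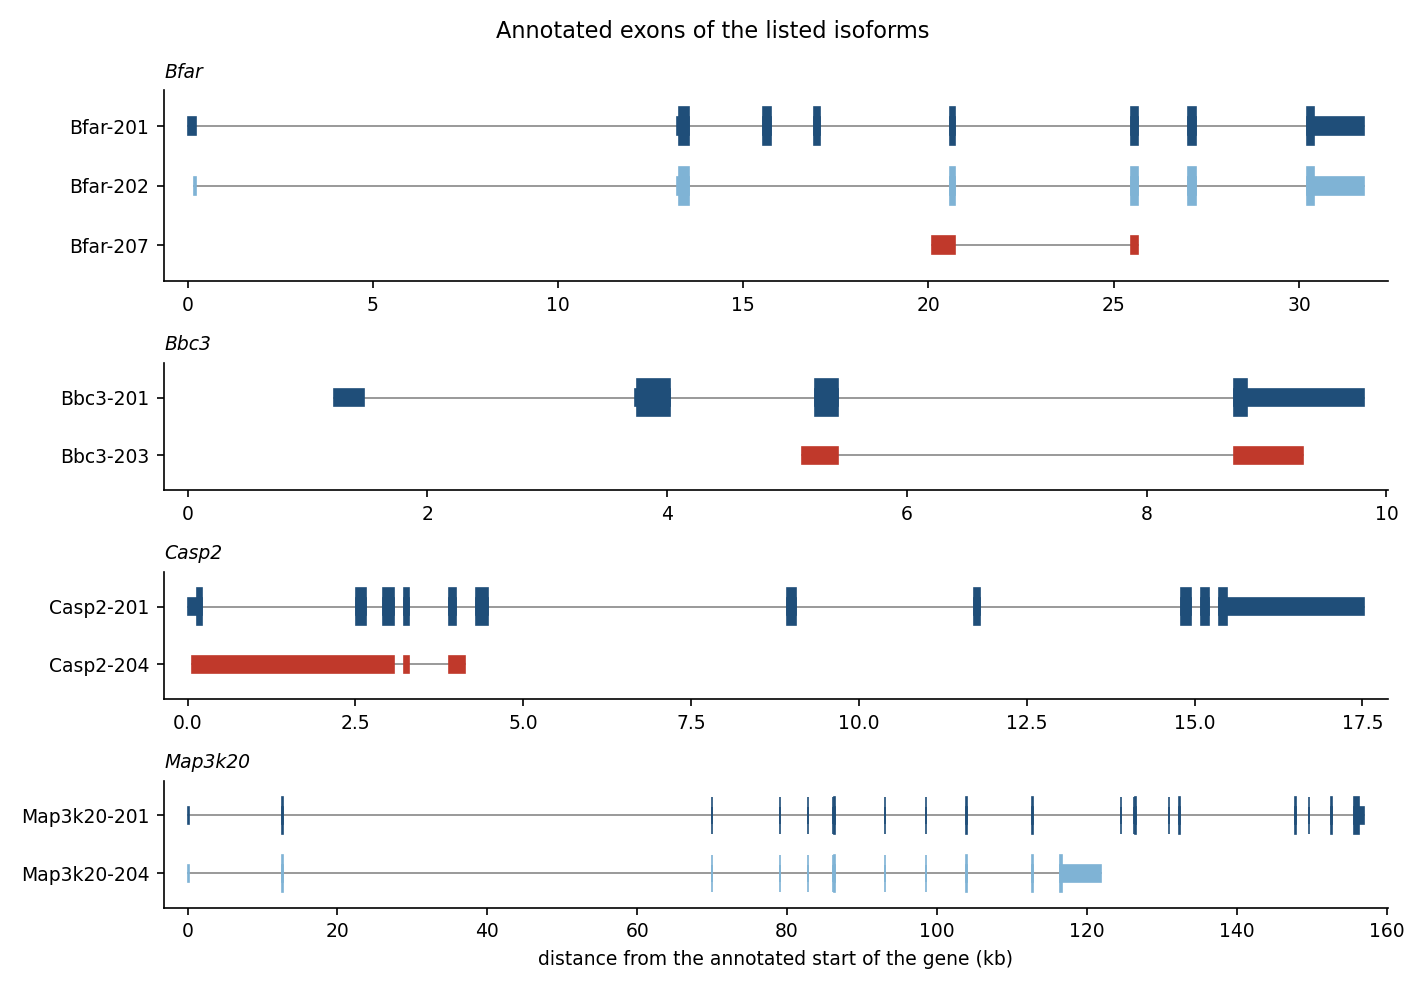
Annotated exons of the 9 listed isoforms (GENCODE M21), with distance from the start of the gene in kb on the horizontal axis of each panel. Tall boxes are coding sequence and low boxes non-coding exon sequence, blue marks protein-coding and red retained intron isoforms, and a thin outline keeps short exons visible. The red isoforms cover only part of the gene, and Map3k20-204 ends in an exon of 5514 bases that Map3k20-201 lacks.

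Bfar (chromosome 16, 13671858-13703612, plus strand) has 8 annotated isoforms, of which 3 were in the table. Usage of the retained intron isoform Bfar-207 rose from 3.4% to 61.3% with BMP2 (q = 2.95e-45 in the authors' deposited table). That was rank 7 by absolute difference among the 302 listed isoforms and rank 3 among gains. In vehicle the full-length coding isoform Bfar-201 was the main form at 76.2%, and in BMP2 it stood at 34.4% (q = 1.29e-10 in the authors' deposited table). The exon-skipping coding isoform Bfar-202 fell from 15.2% to 2.9% (q = 0.00282 in the authors' deposited table). The most used isoform of Bfar was thus a coding one in vehicle and a non-coding one in BMP2. Isoforms outside the table held 5.2% of Bfar transcripts in vehicle and 1.4% in BMP2, so none of them could have changed that order.

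In abundance, most of the difference in Bfar lay in Bfar-207. At 0.402 TPM Bfar-207 was the least abundant of the 9 isoforms in vehicle, and at 20.2 TPM it was the most abundant of them in BMP2, 50.2-fold higher. The size of that ratio rests on the low vehicle mean, whose spread between libraries is not known. The mean of Bfar-201 was 9.13 TPM with vehicle against 11.2 TPM with BMP2, so its usage fell although its mean abundance was 1.23-fold higher. Of all 166 listed isoforms with a usage loss, 19.9% had a higher mean TPM in BMP2. Bfar-202 had 1.86 TPM with vehicle and 0.930 TPM with BMP2. The listed coding isoforms together summed to 10.99 TPM with vehicle and 12.16 TPM with BMP2, a ratio of 1.11.

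A level for the whole gene was derived from the summed TPM of its listed isoforms divided by their summed fraction, with no test. It was 12.02 TPM for Bfar with vehicle and 32.84 TPM with BMP2, 2.73-fold higher. Of the 195 genes with such a level, 11.3% were over 2-fold higher in BMP2. Bfar-207 differed by 19.8 TPM between conditions, against 20.8 TPM for the gene as a whole.

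Bfar-207 is a model of 787 bases in 2 exons, from 13691965 to 13697506. Its first 468 bases lie in the fourth intron of Bfar-201, from 13691965 to 13692432, and end on the AG shown above before the fifth exon. The other 319 bases are exon 5 and exon 6 of Bfar-201, which are also in Bfar-202. The Bfar-207 model begins 20107 bases downstream of the start of Bfar-201, without its start codon, and stops at the last base of the sixth exon. It therefore holds no whole intron of Bfar-201, only the end of one. Bfar-202 lacks exon 3 and exon 4, of 205 and 170 bases. Together these are 375 bases or 125 codons, so the reading frame goes on, with 325 codons in Bfar-202 against 450 in Bfar-201.

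Bbc3 (chromosome 7, 16308393 to 16318205, plus strand) moved the same way with a smaller shift. Bbc3-201, which carries the complete annotated coding sequence of 579 bases, fell from 77.6% to 56.5% with BMP2 (q = 0.0136 in the authors' deposited table). Usage of the retained intron isoform Bbc3-203 rose from 14.0% to 28.7% (q = 0.0194 in the authors' deposited table). Bbc3-201 remained the most used isoform in both conditions. The q-values of Bbc3 were the highest among the members, and neither is under 0.01, a level that 73.5% of all listed isoforms met.

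The abundances of the Bbc3 isoforms moved in opposite directions. Bbc3-201 had 5.47 TPM with vehicle and 3.59 TPM with BMP2, a 1.52-fold lower level of this coding transcript. Bbc3-203 stood at 0.981 TPM and 1.84 TPM, 1.87-fold higher in BMP2. The level of the gene differed little, 7.04 TPM with vehicle against 6.37 TPM with BMP2, and Bbc3 was the lowest of the 4 genes in both conditions. Unlisted Bbc3 isoforms held 8.4% of its transcripts in vehicle and 14.8% in BMP2.

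Bbc3-203 has 881 bases in 2 exons. It starts 110 bases before the third exon of Bbc3-201, inside the second intron, and then follows exon 3 and part of exon 4. The second exon of Bbc3-201, which holds the start codon, is missing from it. As in Bfar, the retained part is the end of an intron up to the acceptor site, and the model begins within that intron. The 110 intronic bases are 59.1% G or C, against 77.9% in the second exon of Bbc3-201 and 43.6% in the intronic part of Bfar-207.

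Casp2 (chromosome 6, 42264985 to 42282508, plus strand) has 10 annotated isoforms, and 2 were in the table. The coding isoform Casp2-201 fell from 80.9% to 60.8% with BMP2 (q = 3.75e-07 in the authors' deposited table). Usage of the retained intron isoform Casp2-204 rose from 3.3% to 14.1% (q = 1.43e-05 in the authors' deposited table). With a deposited difference of 0.108, Casp2-204 had rank 288 among the 302 listed isoforms, close to the lowest absolute difference in the table, 0.101. Its gain of 10.8 percentage points was smaller than the loss of Casp2-201, which fell by 20.1 points. The share of unlisted Casp2 isoforms was 15.8% in vehicle and 25.1% in BMP2.

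Casp2-201 was the most abundant of the 9 isoforms in vehicle, with 13.8 TPM, and had 11.5 TPM in BMP2. Casp2-204 had 0.563 TPM with vehicle and 2.66 TPM with BMP2, 4.72-fold higher, a ratio that also rests on a low vehicle mean. The level of the whole gene was 17.1 TPM with vehicle and 18.96 TPM with BMP2. Casp2-201 was thus 1.20-fold lower while the gene was 1.11-fold higher, and neither ratio was tested. Unlisted Casp2 isoforms held 2.70 TPM with vehicle and 4.76 TPM with BMP2. Whether these are coding was not examined, so the total of coding Casp2 transcripts is not known.

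The retained sequence of Casp2-204 is of another kind than that of Bfar-207 and Bbc3-203. Its first exon of 3006 bases runs from 42265056 to 42268061 without a break and holds the whole of intron 1 and intron 2 of Casp2-201, of 2301 and 244 bases. Both of these introns start with GT and end with AG. The last exon of Casp2-204 runs 142 bases past the end of the fifth exon of Casp2-201 and stops there, so the later 6 exons are missing. The isoform includes the start codon of Casp2-201 at 42265124. Read from that codon, it meets a TGA stop after 25 codons, and the stop begins at the second base after the first exon, within the donor site bases GTGAGG shown above. Casp2-201 read from the same codon runs to 452 codons.

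Map3k20 (chromosome 2, 72285637 to 72442610, plus strand) switched between coding isoforms. Usage was even in vehicle, with 47.4% for Map3k20-201 and 49.1% for Map3k20-204. In BMP2 Map3k20-201 rose to 63.6% (q = 0.00156 in the authors' deposited table) and Map3k20-204 fell to 29.2% (q = 5.79e-06 in the authors' deposited table). Unlisted isoforms held 3.5% in vehicle and 7.2% in BMP2, so the isoforms named here account for nearly all Map3k20 transcripts in both conditions.

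Neither Map3k20 isoform was more abundant in BMP2. Map3k20-204 had 9.27 TPM with vehicle and 2.36 TPM with BMP2, a log2 ratio of -1.97. Map3k20-201 had 8.97 TPM with vehicle and 5.15 TPM with BMP2, a log2 ratio of -0.80, so it gained usage at a lower mean abundance. That was so for 22.1% of the 136 listed isoforms with a usage gain. The level of the gene was 18.9 TPM in vehicle, the highest of the members, and 8.10 TPM in BMP2, 2.33-fold lower. Among all genes with a derived level, 31.8% were over 2-fold lower in BMP2.

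The Map3k20 isoforms share their first 987 coding bases, or 329 codons, through the eleventh exon, and differ after it. Map3k20-201 goes on through 9 more exons with 473 codons of its own, for 802 codons in all. Map3k20-204 ends in a single exon from 72401989 to 72407502, with 125 codons of its own and 454 in all. The kinase domain of ZAK lies at the N-terminus. Long and short protein forms of this kinase are known as ZAK alpha and ZAK beta, and the sterile alpha motif and the ribosome-binding C-terminus belong to the long form. By its coding length Map3k20-201 is the longer of the listed forms, and it was the one with the larger share in BMP2.

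**Figure D2:**
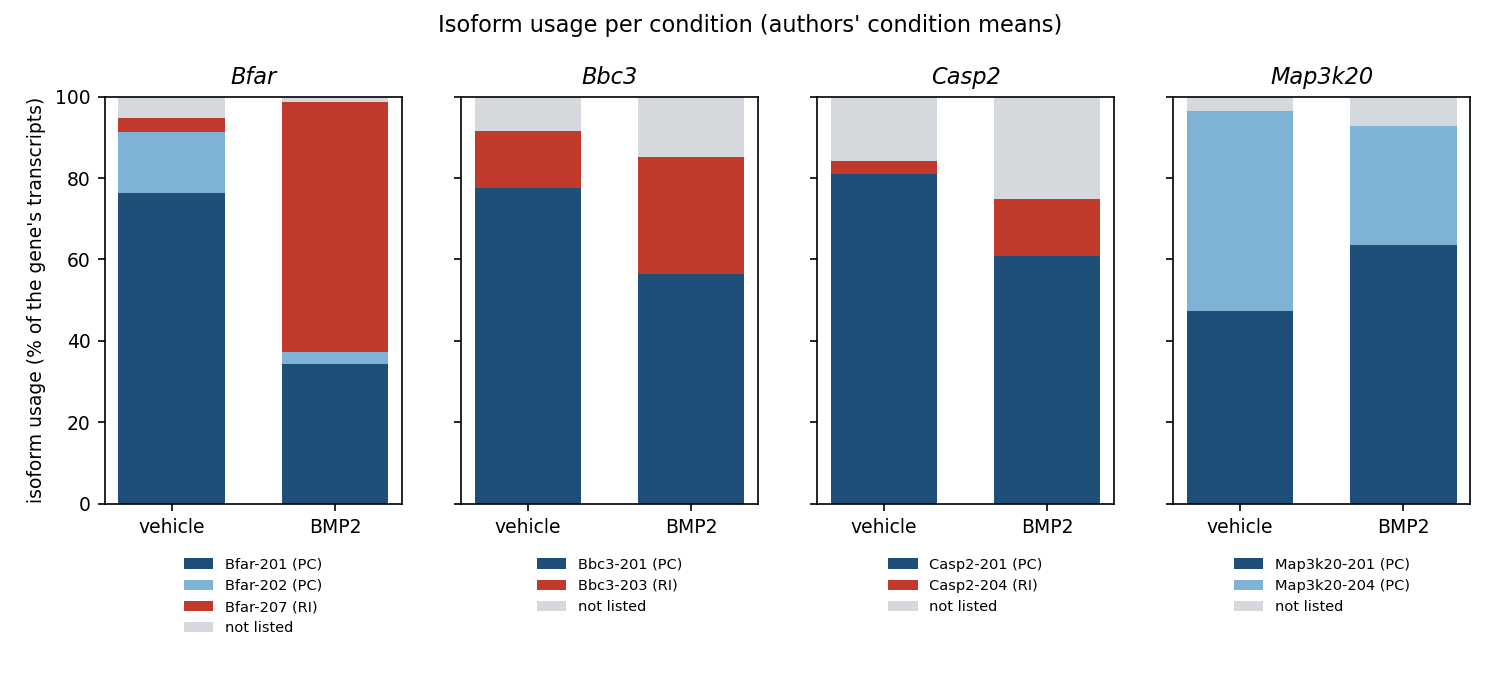
Stacked usage of the listed isoforms in vehicle and BMP2 for each gene, as a percent of the gene's transcripts (authors' means per condition, no error bars available). PC is protein-coding, RI retained intron, and grey is the remainder held by isoforms outside the table. The red segment grows from 3.4% to 61.3% in Bfar, from 14.0% to 28.7% in Bbc3 and from 3.3% to 14.1% in Casp2.

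**Figure D3:**
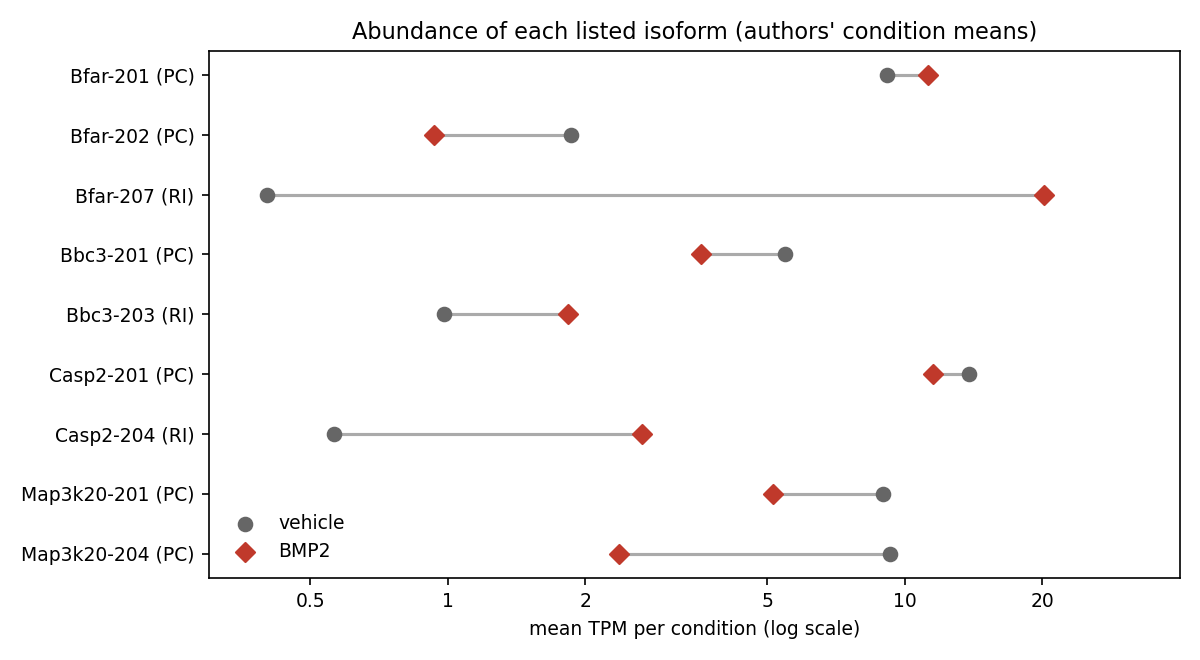
Mean TPM of each listed isoform in vehicle (grey circles) and BMP2 (red diamonds) on a log axis, from the authors' means per condition. Each RI (retained intron) isoform lies higher in BMP2, Bfar-201 is the single PC (protein-coding) isoform that does, and both Map3k20 isoforms lie lower. The RI isoforms are all under 1 TPM in vehicle, so with a minimum mean of 1 TPM they could be listed only if higher in BMP2.

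Across the members, 4 isoforms gained usage and 5 lost it. Over all listed isoforms, 45.0% gained usage and 55.0% lost it. The 5 member isoforms that lost usage are protein-coding, and Map3k20-201 is the 1 protein-coding member that gained, while 60.9% of the 235 listed protein-coding isoforms lost usage. The median absolute difference in usage fraction was 0.199 over the 9 isoforms and 0.2015 over all 302, so in size the members were typical of the table, with Bfar-207 and Bfar-201 at ranks 7 and 26. Ranked by the difference of log2(mean TPM + 0.1) instead, Bfar-207 had rank 10 and Bfar-201 rank 254. An absolute difference over 0.2 was met by 4 of the 9, Bfar-207, Bfar-201, Bbc3-201 and Casp2-201, against 50.7% of all listed isoforms. Each of the 3 member isoforms annotated as retaining an intron gained usage, as did 70.4% of the 27 such isoforms in the table. The 3 were all under 1 TPM with vehicle, so a minimum mean TPM, if one was set, would have favoured gains. Among these 27, Bfar-207 had the highest gain, and Bbc3-203 and Casp2-204 had ranks 15 and 19.

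In 3 of the 4 members the largest usage loss was in a protein-coding isoform and the largest gain in a retained intron isoform. The same held in 14, or 16.1%, of the 87 genes whose gained and lost isoforms could be compared. These are shifts in usage, and Bfar-201 lost usage at a higher mean TPM. With a whole intron of the lost isoform required inside an exon of the gained one, Casp2 alone of the members was left, against 8 genes or 9.2% of the 87. These shares are descriptions, because the members were picked with the table in view. Bfar and Map3k20 had another leading isoform in BMP2 than in vehicle, and Bbc3 and Casp2 kept theirs. In Map3k20 usage in vehicle was nearly even, 49.1% against 47.4% without a replicate error, so which isoform led there is uncertain. Where 2 or more isoforms were listed, the leading one changed in 41.1% of 90 genes.

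**Figure D4:**
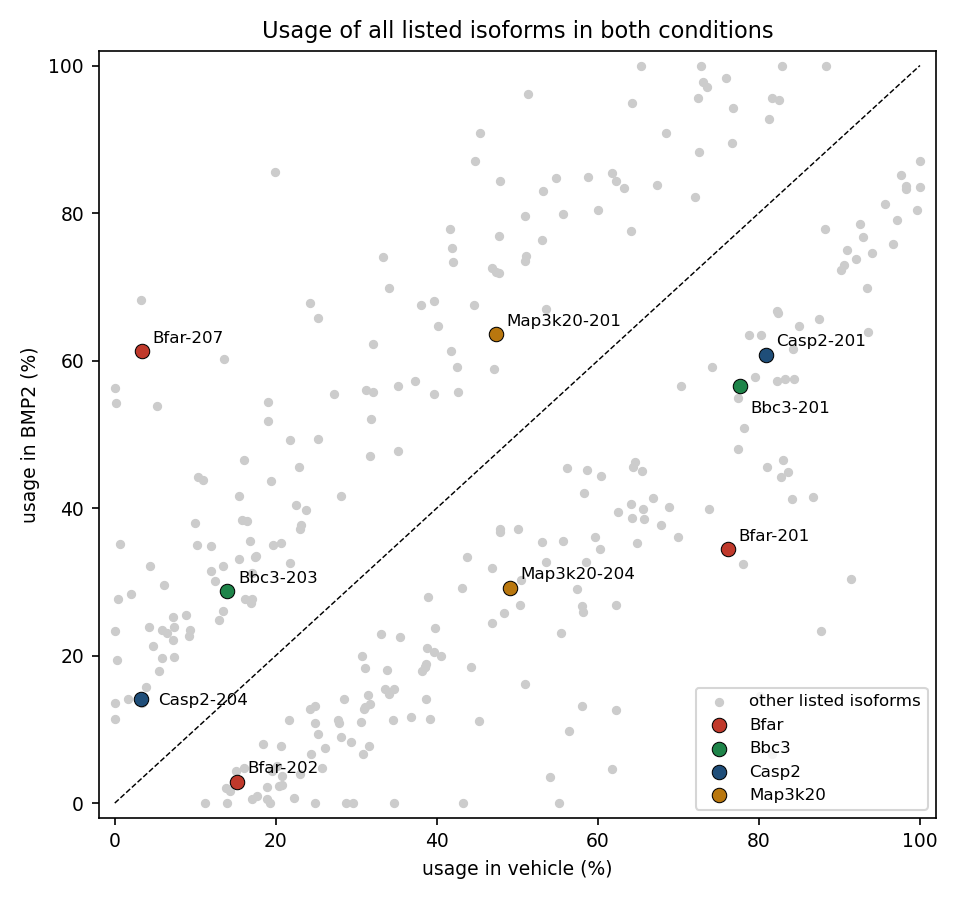
Usage in vehicle (horizontal axis, %) against usage in BMP2 (vertical axis, %) for all 302 listed isoforms, with the 9 member isoforms in colour and equal usage as a dashed line. Bfar-207 stands at 3.4% and 61.3%, far above the line, and Casp2-204 and Bbc3-203 lie closer to it.

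How firmly a usage value can be read depends on how much sequence belongs to 1 isoform alone. Quantifiers of this kind assign reads by short words of sequence, and words of 31 bases were counted here in all 141767 transcripts of GENCODE M21, on both strands. Bfar-207 had 424 of its 757 words to itself, or 56.0%, all of them reaching into the intronic part or its junction with the fifth exon. Another 40 words, 5.28%, recur in 136 other genes and lie within the intronic part. Map3k20-204 had 87 words, 1.31%, in 4307 other genes, all within the last exon that Map3k20-201 lacks. Bfar-201 had 127 words, 4.27%, in 7 other genes. Reads of such words can come from other transcripts, and their share in these values was not tested. Only annotated transcripts were searched, so a word counted as an isoform's own is so among those alone. Unspliced RNA of the same gene would also hold the intronic words of the retained intron isoforms. How much of the usage of these isoforms came from such RNA was not tested.

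Bfar-202 had 24 words to itself, 0.989% of its total, so its usage rests on the junction that skips exon 3 and exon 4. For Bfar-201 the share was 9.32%. Bbc3-203 had 109 words of its own, or 12.8%, against 42.2% for Bbc3-201. For the Casp2 and Map3k20 isoforms the share was 51.8% for Casp2-201, 79.9% for Casp2-204, 66.1% for Map3k20-201 and 81.8% for Map3k20-204. Exons of other genes covered 150 bases of Bfar-201 and 59 bases of Bfar-202, all of 3110001I22Rik on the same strand, and 0 bases of the other 7 isoforms.

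**Figure D5:**
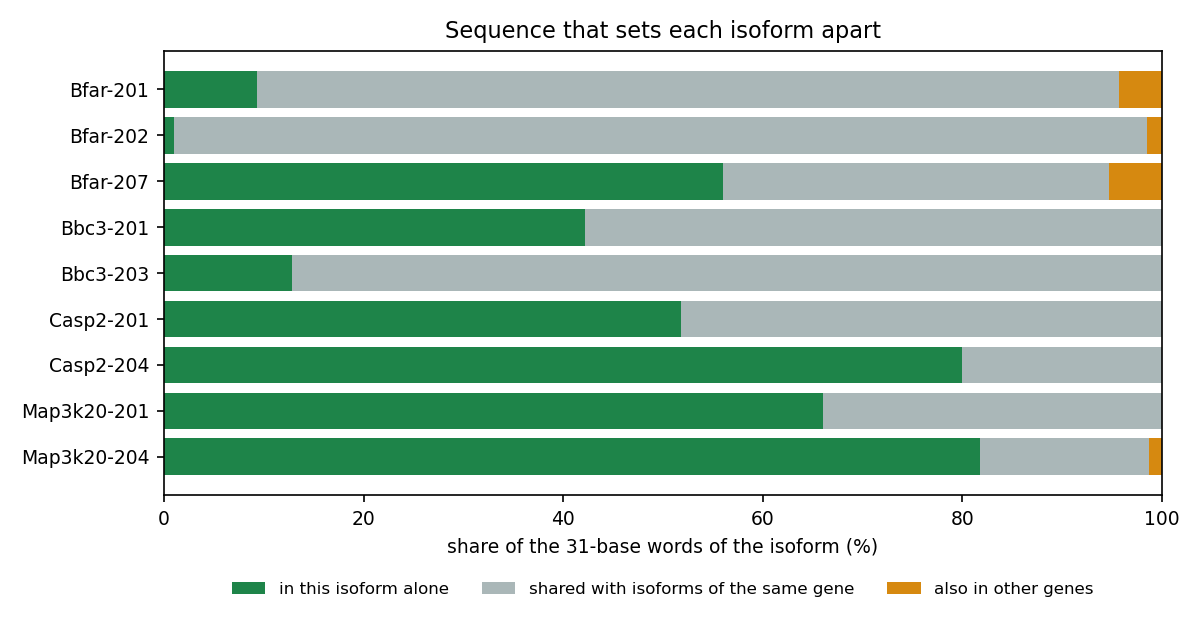
Share of the 31-base words of each listed isoform, in percent, that occur in that isoform alone (green), in other isoforms of the same gene (grey) or also in other genes (orange), over all GENCODE M21 transcripts. Bfar-202 has 0.989% of its words to itself and Map3k20-204 81.8%.

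Transcript length bears on the size of these changes as well. TPM counts molecules, so a short isoform reaches a high usage with few reads. Multiplied by annotated length, Bfar-207 made up 0.981% of the listed Bfar sequence in vehicle and 30.7% in BMP2. On that scale Bfar-201 remained the larger part, with 84.9% in vehicle and 64.9% in BMP2. Bbc3-201 made up 92.0% of the listed Bbc3 sequence in vehicle and 80.1% in BMP2, a difference in fraction of -0.1188 against -0.211 in usage. Map3k20-204, the longer of its pair, held 67.4% of the sequence in vehicle and 47.8% in BMP2. The leading Map3k20 isoform in each condition was thus the same as by usage, where the lead in vehicle was narrow. The direction of each of the 9 changes was the same on both scales, but only that of Bfar-201 could have differed. A fixed length leaves the order of the TPM ratios within a gene as it was.

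Other genes of these pathways were looked up in 6 lists: BCL2 family, caspases and apoptosome, death receptors and inhibitors of apoptosis, p53 pathway, stress-activated MAP kinase cascade, and ribotoxic and integrated stress response. Of 149 genes on the lists 5 were in the table, the 4 members and Atm. The members were on the lists by choice, and without them 1 of 145 genes was in the table. How many genes were tested is not given, so no share over all genes could be set beside these counts. The BCL2 family list had 2 of its 24 genes there, Bfar and Bbc3. Bfar, described above as binding BCL2, was put on that list without being a member of the family. The caspase list had 1 of 22, the MAP kinase list 1 of 37 and the p53 list 1 of 22. The death receptor list, of 23 genes, and the ribotoxic and integrated stress list, of 21 genes, had 0, with Map3k20 itself counted on the MAP kinase list. Genes outside the table were not analysed here. Atm encodes the kinase that signals DNA double-strand breaks to p53 and lies on chromosome 9. Its coding isoform Atm-201 fell from 83.0% to 46.5% of Atm transcripts (q = 0.000489 in the authors' deposited table), with 4.03 TPM under vehicle and 1.30 TPM under BMP2.

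For the isoform with the largest change in each member, the nearest isoforms of other genes were found by the distance between usage in vehicle and usage in BMP2, over these 2 conditions. Bfar-207 was nearest to Gins1-204, 6.90 percentage points away, and Glyctk-201, 7.71 points away. Bbc3-201 was nearest to Rpusd3-202 at 1.61 points and Knop1-205 at 2.25 points. Casp2-201 lay 2.77 points from H2-Aa-201 and 3.40 points from Knop1-205. Map3k20-204 had the same fractions as Ppp2r5c-205, 49.1% and 29.2%, and lay 1.70 points from Mia2-210. The abundances of that pair differed: Ppp2r5c-205 had 59.8 TPM with vehicle and 70.1 TPM with BMP2, while Map3k20-204 was lower in BMP2 as given above.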

How the data were processed

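Libraries were made with a BGI in-house kit from RNA extracted with a QIAGEN kit, per the labels' protocols. The submitters' processing notes name kallisto 0.46.1 and mm39. For the annotation release, test, filters and strand, nothing was found in the labels or the file header. The authors deposited 1 table of their own comparison, with isoform fractions per condition, their difference, q-values and ranks, per the file headers, and mean TPM per condition, also computed by the authors. Ranks run to 380 with 78 absent, and the 302 listed isoforms were used. What the absent ranks held is not known. An isoform or gene outside the 302, also one of the members or the lists, may therefore have passed the authors' comparison. Fractions are printed as percent.

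Isoforms were matched by stable identifier to GENCODE M21 (GRCm38), the source of the exons and sequences. The authors' identifiers of all 9 member isoforms are 1 version higher, and exon ends may not be those they used. No coordinate was converted. Gene levels, exon comparisons and 31-base words were computed with Python 3.11.15 and pandas 2.3.3. The arithmetic of the level was checked on simulated data. These were made as level times fraction without quantification error, so the check does not bear on the accuracy of the levels here. Per gene, the largest gain and the largest loss formed a pair. A test across libraries was planned only for the case that the authors' table held values per library. It holds means per condition, so the authors' q-values were used.

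Named genes are the members, the genes of 6 lists in the table and, per member, the 2 nearest isoforms of other genes, predicted models passed over. Members and lists were chosen with earlier results of these data known. Alternatives covered the q (0.01), the minimum difference (0.2 or none), a level of 5 TPM, the derivation of level and rank, the tolerance for ends (200 bases in place of 50) and the definition of retention. The share of TPM times length was added after the data were seen.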

Additional observations from a re-analysis of the deposited data

How the results depend on the processing

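All 9 member isoforms were left when a level of 5 TPM or more was required of the gene. Without a minimum difference the count of 9 could not fall. At a q under 0.01, 7 were left, without those of Bbc3, and with a difference over 0.2 there were 4. Log2 ratios of gene level kept their sign, which these settings could hardly change. Adding 1 to both levels cannot reverse it, and the most used isoform draws on the same TPM and fractions. For Bfar the ratio was 1.45, and it was 1.445 from the most used isoform and 1.378 as log2(level + 1). For Bbc3 it was -0.1445, and -0.1491 and -0.1257 in these settings. As log2(level + 1) it was 0.1422 for Casp2, in place of 0.1501, and -1.129 for Map3k20, in place of -1.223. By log2(mean TPM + 0.1) Bfar-207 had rank 10 in place of 7, Bfar-201 254 in place of 26, Bbc3-201 220 in place of 137, Casp2-201 263 in place of 152, Casp2-204 88 in place of 288 and Map3k20-204 100 in place of 154. Starts differed by over 50 bases in 4 member pairs and by over 200 bases in 2, Bfar and Bbc3. Counted by a whole intron inside an exon, retention was found in 1 member in place of 3, because Bfar-207 and Bbc3-203 begin within an intron. The lists had 4 genes in the table at a q under 0.01 and 4 with a difference over 0.2, in place of 5. The length-weighted difference of Bfar-202, -0.09738, was under 0.1 in size. No paired analysis was possible because the table gives means per condition, and for the same reason no replicate could be left out. Depth per library is unknown and sets no limit that could be stated.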
